A study of Mus musculus with 27 samples.

Results

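The comparison described here sets mouse embryonic stem cells in which Sox17 was targeted against their control on day 6 of differentiation. Its members are the arrays whose titles name day 6, 2 in which a short hairpin RNA (shRNA) targets Sox17 and 2 in which it targets firefly luciferase, a gene that mouse cells lack. These are 4 of the 27 arrays of the series, which follows both arms from day 0 to day 10. All cells, controls included, were of the AB2.2 line and carried a lentivirus that makes enhanced green fluorescent protein beside its shRNA. They were sorted for that fluorescence, aggregated as embryoid bodies in hanging drops and plated after 4.5 days, so that day 6 falls after plating. Each array measured total RNA of a whole culture, given as RMA values, which are log2 expression levels. The 2 arrays of a group are biological replicates by the labels, which do not say whether each came from a separate transduction. The p-values therefore cover only the spread between such arrays. In whole cultures, fewer cells of a type and less RNA per cell cannot be told apart.

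An embryoid body is an aggregate in which stem cells pass through a stage like gastrulation and form derivatives of endoderm, mesoderm and ectoderm. Sox17 is a transcription factor of the endoderm, the layer whose secreted signals act on neighbouring mesoderm when heart precursors are specified. Heart muscle cells then assemble the sarcomere, in which myosin thick filaments pull on actin thin filaments between Z-discs while titin spans the unit, and in which troponin makes the pull depend on calcium. Myocardin, encoded by Myocd, is a coactivator of serum response factor, which binds the CArG box in the promoters of many muscle genes, and Mef2c is another activator of muscle genes.

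Promoter sequences of heart muscle genes that were lower with Sox17 shRNA are shown here because the genes for Myocd and Mef2c were lower on the same arrays. The 250 bases before the start were searched on both strands for the CArG box and the MEF2 element in the RefSeq promoter table of build GRCm38.p6. No promoter of these genes held both motifs, so matches did not overlap. Of the 32 heart muscle genes and heart transcription factors lower at day 6, 29 had an entry, and 6 of these (20.7%) had a CArG box. Of the 42 measured members of the same lists that were not lower, 26 had an entry and 3 (11.5%) had a CArG box, against 1.62% of all 27025 symbols in the table. A MEF2 element stood in 2 of the 29 (6.9%), in 2 of the 26 (7.69%) and in 1.99% of all symbols. Counted over promoters, since a gene can have several, a CArG box stood in 14.3% of the 42 promoters of the lower genes, 14.7% of the 34 of the others and 1.47% of all 32851. A match only describes these letters and was not tested as a binding site.

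The 6 promoters with a CArG box are given from 200 bases before the start up to the start, 5′ to 3′ on the strand of the gene, with the box in capitals. They are those of Myl7 (chr11:5898783-5898982, minus strand), Actc1 (chr2:114052876-114053075, minus), Myl3 (chr9:110763478-110763677, plus), Hopx (chr5:77115124-77115323, minus), Myom1 (chr17:71019357-71019556, plus) and Nebl (chr2:17462857-17463056, minus). The box began 61, 47, 85, 83, 99 and 162 bases before the start, in the same order.
Myl7: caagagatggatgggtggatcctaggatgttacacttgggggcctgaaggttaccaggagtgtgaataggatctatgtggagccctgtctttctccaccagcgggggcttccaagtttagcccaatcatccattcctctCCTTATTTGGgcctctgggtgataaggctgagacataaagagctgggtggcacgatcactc
Actc1: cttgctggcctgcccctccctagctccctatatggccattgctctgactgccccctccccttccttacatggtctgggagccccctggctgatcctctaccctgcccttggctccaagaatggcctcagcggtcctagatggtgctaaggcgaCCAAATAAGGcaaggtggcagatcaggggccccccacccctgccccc
Myl3: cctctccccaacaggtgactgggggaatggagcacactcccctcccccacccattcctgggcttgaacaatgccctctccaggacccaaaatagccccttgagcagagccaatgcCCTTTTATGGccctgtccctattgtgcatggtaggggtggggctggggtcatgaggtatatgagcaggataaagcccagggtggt
Hopx: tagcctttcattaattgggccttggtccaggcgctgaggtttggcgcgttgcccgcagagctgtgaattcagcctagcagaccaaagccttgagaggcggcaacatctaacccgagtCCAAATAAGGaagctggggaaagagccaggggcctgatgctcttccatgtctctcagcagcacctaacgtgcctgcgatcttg
Myom1: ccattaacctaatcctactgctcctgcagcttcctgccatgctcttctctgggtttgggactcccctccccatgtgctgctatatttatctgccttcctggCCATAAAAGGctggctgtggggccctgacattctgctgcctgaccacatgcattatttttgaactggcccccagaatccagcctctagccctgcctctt
Nebl: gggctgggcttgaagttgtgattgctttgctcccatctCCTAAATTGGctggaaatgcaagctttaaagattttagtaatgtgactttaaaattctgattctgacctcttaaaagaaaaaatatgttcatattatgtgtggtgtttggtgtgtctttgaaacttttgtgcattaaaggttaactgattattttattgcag

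The 2 promoters with a MEF2 element, in capitals, are those of Mybpc3 (chr2:91117944-91118143, plus strand) and Ttn (chr2:76982548-76982747, minus strand). It began 90 and 166 bases before the start.
Mybpc3: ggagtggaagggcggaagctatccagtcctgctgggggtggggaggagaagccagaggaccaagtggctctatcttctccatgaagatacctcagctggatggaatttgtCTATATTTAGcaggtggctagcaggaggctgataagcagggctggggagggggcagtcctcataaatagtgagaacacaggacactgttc
Ttn: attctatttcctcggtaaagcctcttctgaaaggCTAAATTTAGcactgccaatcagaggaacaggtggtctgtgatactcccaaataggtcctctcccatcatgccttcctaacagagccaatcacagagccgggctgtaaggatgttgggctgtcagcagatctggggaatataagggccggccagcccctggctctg

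Sox17 itself read 9.83 and 9.35 on the control arrays of day 6 and 8.60 and 9.39 on the Sox17 shRNA arrays. Replicate 2 of the Sox17 shRNA group thus lay between the control arrays, and only replicate 1 lay below them. The difference was -0.60 (SE 0.80, limma adjusted p = 0.835), and the other probe set of the gene gave -0.45. The level of the targeted gene thus did not check the label of Sox17 shRNA replicate 2. Groups are named by their labels, and the main counts are also given without that array. On days 4, 5, 8 and 10 both Sox17 shRNA arrays lay below both control arrays in Sox17. On day 8 they read 7.90 and 8.54 against 9.91 and 10.29. The Sox17 differences of days 5 and 8 did not pass in limma either. Hhex, a homeobox gene of anterior endoderm, read 8.31 and 7.91 in control and 7.71 and 7.75 with Sox17 shRNA (-0.38, adjusted p = 0.803). Cer1, which encodes a secreted inhibitor of Nodal, Bmp and Wnt ligands, read 5.00 and 4.99 against 4.92 and 4.87 (-0.10, adjusted p = 0.977). In control Cer1 had read 7.62 and 7.49 on day 5, and 3.78 and 3.93 on day 0, so day 6 left little room for a fall. With Sox17 shRNA it read 5.29 and 6.28 on day 5, a difference that did not pass.

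Replicates lay further apart with Sox17 shRNA. The 2 control arrays differed by at least 2-fold in 7 of 13297 genes and the 2 Sox17 shRNA arrays in 255. The 3′ minus 5′ difference of the actin control probe sets, which reflects how intact the RNA was, was 0.753 on Sox17 shRNA replicate 2 and 0.412 to 0.534 on the other 3 arrays. The part of this difference in the results was not tested.

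At day 6, 377 of 13297 genes were higher with Sox17 shRNA (2.84%) and 314 were lower (2.36%), at an adjusted p under 0.05 in limma. These shares over all genes are the background for each list count of day 6 below. Changes of at least 2-fold were more often falls, with 81 higher and 145 lower genes, while the median difference over all genes was 0.03. The counts moved when single arrays were left out. They were 109 higher and 120 lower without control replicate 1, 161 and 220 without control replicate 2, 197 and 226 without Sox17 shRNA replicate 1, and 348 and 304 without Sox17 shRNA replicate 2. Such a fit leaves the group concerned with 1 array, which lowers power and drops that group's replicate spread from the shared estimate. A count can thus move, or a call be lost, where no array is unusual. Each call named below held whichever 1 of the 4 arrays was left out, unless its values without an array are given.

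Heart muscle genes made up most of the largest falls. The 5 lists of sarcomere, calcium handling and other heart muscle genes held 68 genes, of which 57 passed the filter on dim probe sets, and 27 of these were lower (47.4%, against 2.36% of all genes). None was higher by limma's adjusted p, and 1 was at an unadjusted p under 0.05. Day 6 was chosen as the day contractile genes start in control. The filter also keeps a gene that is high on any 2 arrays of the series, such as later control arrays. The share of 47.4% thus only describes these genes. Without the filter 27 heart muscle genes were lower as well. The median difference over the 57 was -0.52, and it was -0.84 without Sox17 shRNA replicate 2. In 45 of them both Sox17 shRNA arrays lay below both control arrays, which was so for 19.1% of all genes. The count of lower genes was 23 without either control array, 24 without Sox17 shRNA replicate 1 and 27, not all the same genes, without Sox17 shRNA replicate 2, and 22 of the 27 kept their call whichever array was left out.

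**Figure D1:**
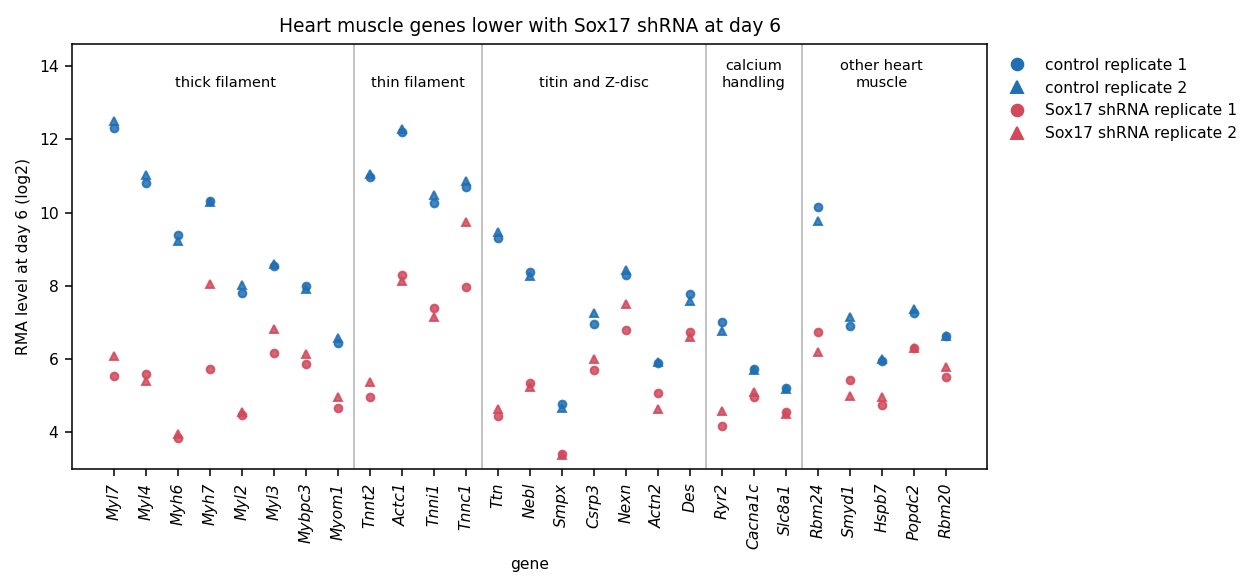
Levels (RMA, log2) on the 4 arrays of day 6 for the 27 heart muscle genes that were lower with Sox17 shRNA, grouped by list and ordered by the size of the difference. Blue marks are control arrays and red marks Sox17 shRNA arrays. In every gene shown both red marks lie below both blue marks, and the red marks of Myh7 and Tnnc1 are the furthest apart.

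All 8 measured thick filament genes were lower, with a median difference of -3.39. Myl7, the regulatory myosin light chain of the atrium and the early heart tube, read 12.31 and 12.50 in control and 5.54 and 6.09 with Sox17 shRNA. The difference was -6.59 (SE 0.37, adjusted p = 1.35e-09). The Sox17 shRNA levels were close to the 5.66 and 5.49 of control arrays on day 0, before differentiation, so no fold is given. Myl4, an atrial essential light chain, read 10.82 and 11.04 against 5.60 and 5.41 (-5.42, SE 0.23, adjusted p = 3.24e-11).

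Myh6, the alpha myosin heavy chain, read 9.39 and 9.22 in control and 3.84 and 3.96 with Sox17 shRNA (-5.40, SE 0.15, adjusted p = 4.47e-14). Both Sox17 shRNA values of Myh6 were near its level of 3.98 and 4.18 in control on day 5. Myh7, the beta heavy chain, read 10.30 and 10.28 in control but 5.74 and 8.04 with Sox17 shRNA, so the 2 treated cultures differed from each other while both lay below control. Its difference of -3.40 (SE 0.53, adjusted p = 6.01e-04) was -4.55 without Sox17 shRNA replicate 2 and -2.25 without replicate 1. The other 4, Myl2, Myl3, Mybpc3 and Myom1, encode ventricular light chains, a myosin binding protein and an M-band protein. They differed by -3.39, -2.07, -1.94 and -1.69.

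Of the 8 measured thin filament genes 4 were lower. Tnnt2, cardiac troponin T, which ties the troponin complex to tropomyosin, read 10.98 and 11.05 in control and 4.97 and 5.37 with Sox17 shRNA (-5.85, SE 0.16, adjusted p = 4.47e-14). Actc1, cardiac alpha actin, read 12.20 and 12.28 against 8.29 and 8.14 (-4.02, SE 0.20, adjusted p = 2.18e-10). Its Sox17 shRNA arrays stood well above the 6.19 and 5.63 of the control arrays of day 5. Tnni1, the slow troponin I of the embryonic heart, read 10.27 and 10.48 against 7.40 and 7.15 (-3.10, adjusted p = 1.94e-05).

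Tnnc1, troponin C, read 10.70 and 10.85 in control and 7.97 and 9.73 with Sox17 shRNA (-1.93, adjusted p = 0.0092). It no longer passed when either control array was left out (-2.005 and -1.86, adjusted p = 0.0686 and 0.0774) or when Sox17 shRNA replicate 1 was (-1.05, 0.161). Tpm1, an alpha tropomyosin also made outside the heart, read 12.23 and 12.33 against 12.16 and 12.17 (-0.11, adjusted p = 0.903), and its 4 probe sets ranged from -1.38 to 0.47. Tnni3, the troponin I of the mature heart, was at 4.76 and 4.55 in control and 4.66 and 4.22 with Sox17 shRNA, and in control it reached 7.68 and 7.38 only on day 8.

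Of 13 measured genes of titin and the Z-disc 7 were lower, with a median of -1.005. Ttn, titin, read 9.31 and 9.47 in control and 4.46 and 4.65 with Sox17 shRNA (-4.84, SE 0.25, adjusted p = 6.14e-10). Nebl, nebulette of the cardiac Z-disc, read 8.38 and 8.26 against 5.35 and 5.25 (-3.02, adjusted p = 2.39e-09). In both genes the gap between arms was many times the distance between replicates.
Smaller falls were those of Smpx (-1.32), Csrp3 (-1.27), Nexn (-1.21) and Actn2 (-1.05), which encodes the Z-disc crosslinker alpha-actinin. Des, desmin, differed by -1.005, a call lost without control replicate 1 (-0.90, adjusted p = 0.0857).

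Fewer genes of calcium handling and excitation passed. Of 12 measured, 3 were lower, or 1 without either control array or Sox17 shRNA replicate 1, and the median was -0.16. Ryr2, the calcium release channel of the sarcoplasmic reticulum, read 7.02 and 6.78 in control and 4.17 and 4.60 with Sox17 shRNA (-2.52, SE 0.18, adjusted p = 4.91e-08). The small falls of Cacna1c, a calcium channel subunit (-0.67), and Slc8a1, the sodium calcium exchanger (-0.66), were lost without control replicate 1 (-0.66 for both, adjusted p = 0.131 and 0.211), control replicate 2 (-0.68 and -0.67, 0.0871 and 0.148) or Sox17 shRNA replicate 1 (-0.59 and -0.70, 0.127 and 0.112). That of Slc8a1 was lost without Sox17 shRNA replicate 2 as well (-0.63, adjusted p = 0.133). Atp2a2, the calcium pump of the same store, read 11.49 and 11.27 against 11.27 and 11.23 (-0.13, adjusted p = 0.794) in the probe set used. That was the smallest difference of its 6 probe sets, which reached -1.22. Gja1, a gap junction protein of many cell types, read 12.09 and 11.96 against 11.94 and 11.90 (-0.11, adjusted p = 0.734), and its 6 probe sets ranged from -0.87 to 0.13.

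Among 16 other heart muscle genes 5 were lower. Rbm24, an RNA binding protein that acts in splicing of sarcomere transcripts, read 10.16 and 9.76 in control and 6.75 and 6.20 with Sox17 shRNA (-3.49, SE 0.38, adjusted p = 1.52e-05). Rbm20, a splicing factor of titin, read 6.63 and 6.63 against 5.51 and 5.78 (-0.99, adjusted p = 2.61e-04). Smyd1, a muscle methyltransferase, differed by -1.82, although 1 of its probe sets had the opposite sign, and the small heat shock protein gene Hspb7 by -1.11. Popdc2 differed by -1.01, a call lost without control replicate 2 (-0.95, adjusted p = 0.0581). Nppa, which encodes atrial natriuretic peptide, was low in both arms at this day (4.59 and 4.86 against 4.30 and 4.54). Fabp3, the fatty acid binding protein of heart, read 9.83 and 9.20 against 7.61 and 8.09 (-1.67, adjusted p = 0.109), with 0.01 in its other probe set.

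**Figure D2:**
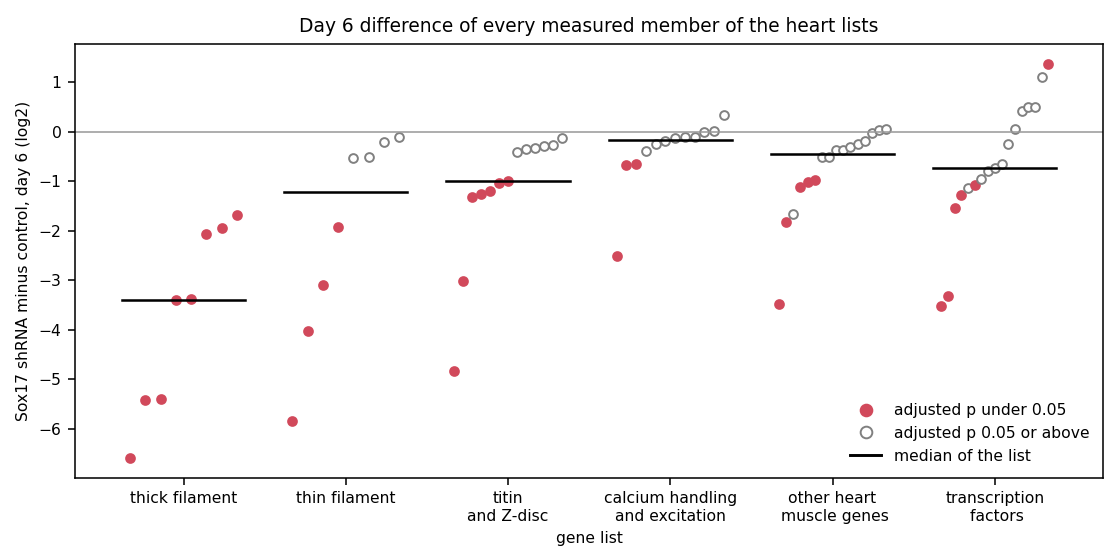
Day 6 difference (Sox17 shRNA minus control, log2) of every measured member of the 5 heart muscle lists and the list of heart transcription factors, with a black bar at each list's median. Filled points passed an adjusted p of 0.05 and open points did not. All 8 thick filament genes are filled, and the 1 filled point above 0 is Hand1.

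Of 17 measured heart transcription factors 5 were lower and 1 was higher. These 6 calls held without any 1 array. Myocd, the coactivator named above, read 9.74 and 9.58 in control and 6.13 and 6.16 with Sox17 shRNA (-3.52, SE 0.21, adjusted p = 3.54e-09). Mef2c read 9.42 and 9.17 against 5.96 and 5.99 (-3.32, SE 0.26, adjusted p = 2.06e-07), and its 5 probe sets ranged from -4.09 to -1.96. The gap between arms in these genes was many times the distance between replicates.
Nkx2-5, a homeobox gene of heart precursors, fell less far, from 7.63 and 7.51 to 6.41 and 6.17 (-1.28, SE 0.22, adjusted p = 0.0018). Smarcd3, a heart subunit of the BAF chromatin remodelling complex, differed by -1.54 and Hopx, an atypical homeodomain protein, by -1.07.

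Hand1, a basic helix-loop-helix factor of the heart and of extraembryonic mesoderm, was higher, at 9.49 and 9.62 with Sox17 shRNA against 8.24 and 8.12 in control (1.37, SE 0.20, adjusted p = 2.97e-04). The other 11 measured heart factors did not pass the test. Gata4 read 8.59 and 8.25 in control and 7.58 and 7.66 with Sox17 shRNA (-0.80, adjusted p = 0.175), and Gata6 10.08 and 9.34 against 8.44 and 8.70 (-1.14, adjusted p = 0.179). Isl1, a factor of second heart field precursors, differed by -0.74 (adjusted p = 0.442), Tbx5 by -0.24 (0.573), Hand2 by 0.06 (0.987) and Tbx20 by 0.49 (0.801), which was -0.36 with the median over its probe sets.
A p that misses the threshold with so few arrays does not show that levels were equal.

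The step from day 5 to day 6 was then compared between arms. Day 6 was chosen as the day contractile genes start in control, so a control rise of such genes followed from that choice. The same control step enters the difference between the steps given below. In control, 38 of the 57 heart muscle genes were higher on day 6 than on day 5 (11.2% of all genes), with a median step of 1.25. In the Sox17 shRNA arm 12 were (9.81% of all genes), with a median step of 0.18. That second count was 5 without Sox17 shRNA replicate 2 of day 6 and 7 without replicate 1 of day 5. The difference between the steps was itself tested and equals the day 6 difference minus the day 5 difference. It was lower in 15 of the 57 (0.541% of all genes) and in 12 to 17 when any 1 of the 8 arrays was left out. Over all genes 22 were higher (0.165%) and 72 lower in that test. These counts over all genes were 198 and 217 without Sox17 shRNA replicate 2 of day 5, 50 and 101 without Sox17 shRNA replicate 1 of day 6, and between 9 and 18 higher and between 32 and 52 lower without any other 1 array.

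Tnnt2 shows the step gene by gene. It read 3.80 and 4.11 in control on day 5 and rose by 7.06 to day 6, while with Sox17 shRNA it read 3.91 and 3.91 on day 5 and rose by 1.26 (adjusted p = 6.55e-05). The steps differed by -5.80 (adjusted p = 3.66e-11). Actc1 rose by 6.32 in control and by 2.06 with Sox17 shRNA, and Myocd by 4.79 and 1.67. For Myl7 the control step was 6.04 and the Sox17 shRNA step was 0.20 (adjusted p = 0.788), and for Ttn 4.94 and 0.15 (adjusted p = 0.776).

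Nkx2-5 rose by 1.52 in control, against 0.41 with Sox17 shRNA (adjusted p = 0.246), and the difference of those steps did not pass (-1.11, adjusted p = 0.163). Mef2c already differed on day 5, at 6.49 and 6.84 in control and 4.93 and 5.08 with Sox17 shRNA (-1.66, adjusted p = 8.3e-04). Rbm24 likewise read 8.41 and 8.36 against 5.79 and 6.79 on day 5 (-2.09), a call lost without Sox17 shRNA replicate 1 of that day (-1.59, adjusted p = 0.0663).

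**Figure D3:**
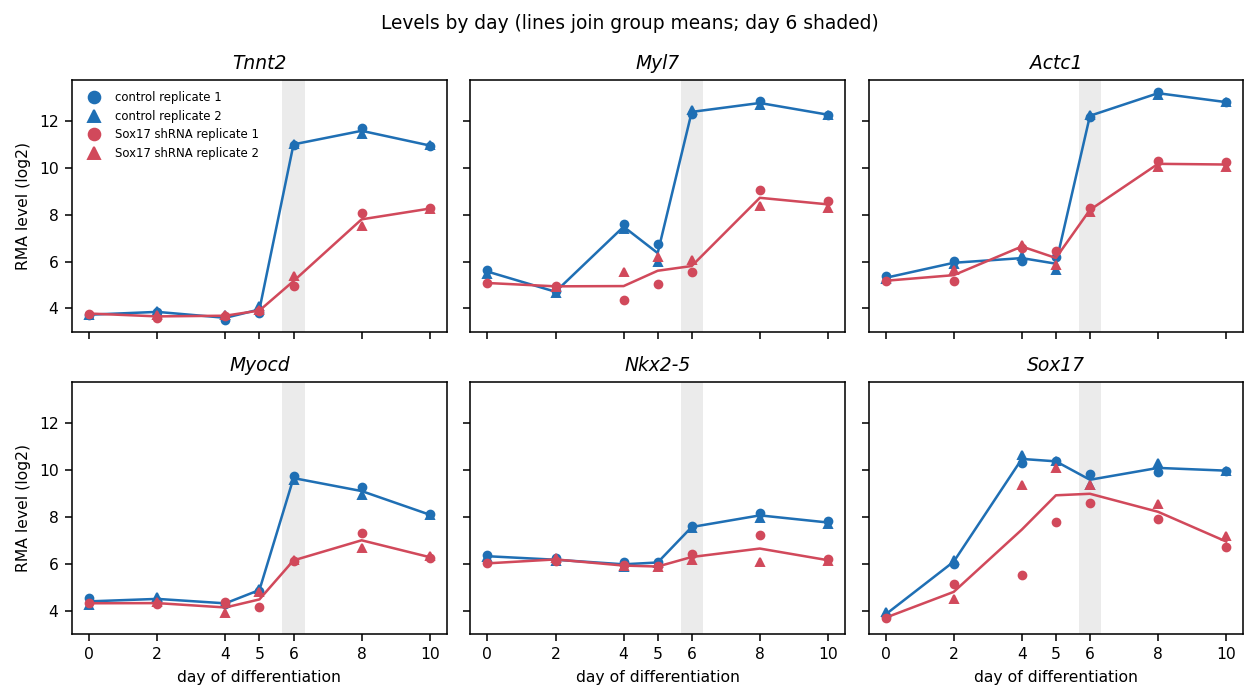
Levels (RMA, log2) of 6 genes on every array of the series by day of differentiation, with lines through group means, control in blue, Sox17 shRNA in red and day 6 shaded. Tnnt2, Myl7, Actc1 and Myocd climb between days 5 and 6 in control and stay lower with Sox17 shRNA to day 10. The Sox17 panel shows 1 red mark of day 6 between the blue marks.

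Days 5 and 8 share no array with day 6 and were tested in the same way. The tests share 1 estimate of the spread per gene over all days, so calls on different days are not independent. On day 5, 818 genes were higher (6.15%) and 431 lower (3.24%) with Sox17 shRNA, and 1 heart muscle gene was higher and 4 were lower, with a median of -0.02. On day 8, 251 genes were higher (1.89%) and 390 lower (2.93%), and 37 heart muscle genes were lower, with a median of -1.31. The 27 genes lower on day 6 were all among those 37, and 4 of the 27 were lower on day 5. The 4 lower genes of day 5 were 1 without control replicate 1, 2 without control replicate 2, 0 without Sox17 shRNA replicate 1 and 5 without replicate 2, and the 1 higher gene was lost without Sox17 shRNA replicate 1. The 37 of day 8 were 33 to 40 without any 1 array. The counts over all genes ranged from 222 to 947 higher and 92 to 763 lower on day 5, lowest without control replicate 1 for rises and without Sox17 shRNA replicate 1 for falls. On day 8 they ranged from 85 to 351 higher, lowest without control replicate 1, and from 197 to 353 lower, lowest without control replicate 2. Over all genes, 206 of the day 6 rises were also called on day 5 (54.6% of the day 6 list and 25.2% of the day 5 list) and 97 of the falls (30.9% and 22.5%). For day 8 the shared rises were 104 (27.6% and 41.4%) and the shared falls 172 (54.8% and 44.1%).

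The day 8 difference departed from that of day 6 in 51 genes, 22 higher (0.165%) and 29 lower (0.218%). Leaving out control replicate 1 of day 6 gave 5 and 17, and without any other 1 array they ranged from 9 to 40 (highest without Sox17 shRNA replicate 2 of day 8) and from 19 to 29. In heart muscle it was higher in 3 genes and lower in 7. The 3 were 1 without any 1 array except a Sox17 shRNA replicate 2, and the 7 were 3 without control replicate 1 of day 6 and 4 without control replicate 2 of day 8. Tnnt2 reached 8.08 and 7.54 with Sox17 shRNA on day 8 against 11.73 and 11.46 in control, so that its difference went from -5.85 to -3.79, a change of 2.06 (adjusted p = 1.91e-04). Tnni3 moved the other way, with no rise by day 8 in the Sox17 shRNA arm (4.42 and 4.08) beside the control levels above, a change of -3.06 (adjusted p = 4.46e-04). Actn2 and Smpx changed by -1.82 and -1.41 between these days.

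**Figure D4:**
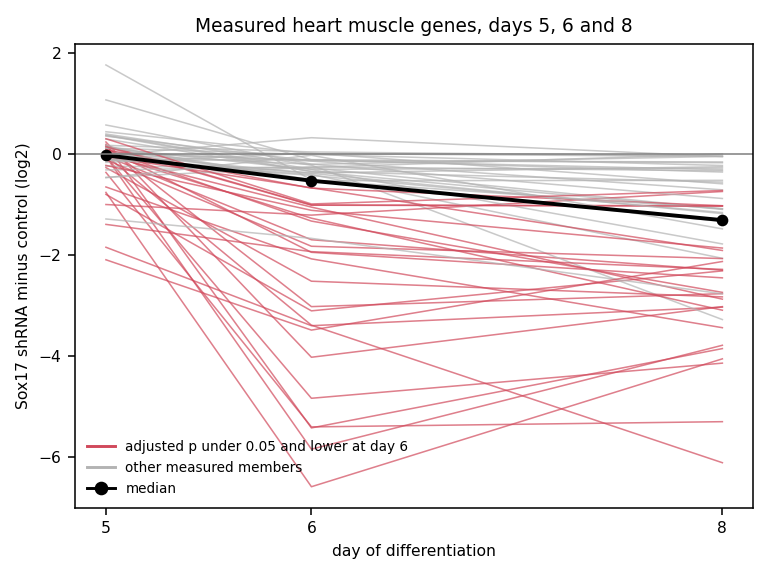
Difference between arms (Sox17 shRNA minus control, log2) of the 57 measured heart muscle genes on days 5, 6 and 8, 1 line a gene. Red lines are the 27 genes lower at day 6 and the black line is the median over the 57, at -0.02, -0.52 and -1.31.

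Endoderm genes were next, since Sox17 acts in that layer, and are set beside the 2.36% of all genes that were lower. Of 23 measured genes of definitive endoderm 4 were lower, or 2 without control replicate 1 or Sox17 shRNA replicate 1, and the median was -0.38. Otx2, a homeobox gene of anterior endoderm and of the early brain, read 8.22 and 8.20 in control and 6.65 and 6.91 with Sox17 shRNA (-1.43, SE 0.24, adjusted p = 0.00122). Pyy, a gut peptide hormone, read 7.66 and 7.56 against 5.82 and 5.51 (-1.94, SE 0.20, adjusted p = 7.53e-06). Its control arrays read 5.95 and 5.97 on day 5 and 5.43 and 5.39 on day 8, both below those of day 6.
Epcam, an epithelial adhesion protein, read 10.06 and 9.93 against 7.87 and 9.48 (-1.32), and Frzb, a secreted Wnt inhibitor, 9.45 and 8.91 against 7.66 and 7.39 (-1.65). Each was lost without 3 of the 4 arrays, Epcam without either control array or Sox17 shRNA replicate 1 (-1.26, -1.39 and -0.51, adjusted p = 0.219, 0.115 and 0.415) and Frzb without control replicate 1 or either Sox17 shRNA array (-1.38, -1.79 and -1.52, adjusted p = 0.25, 0.0646 and 0.104). Foxa2, a forkhead factor of endoderm, read 8.24 and 7.81 against 7.10 and 7.83 (-0.56, adjusted p = 0.313).

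Of 16 measured genes of visceral endoderm and yolk sac 1 was lower, although the median was -0.96 and 14 differences were negative. That gene was Rbp4, the plasma retinol carrier (-1.71, adjusted p = 0.00719), and its call was lost without 3 of the 4 arrays, either control array or Sox17 shRNA replicate 1 (values from -2.002 to -1.42 over the 4, adjusted p up to 0.0894). Cubn, the cubilin receptor of visceral endoderm, read 9.37 and 9.04 in control and 7.04 and 5.19 with Sox17 shRNA (-3.09, adjusted p = 0.16). Its partner Amn read 7.003 and 6.89 against 5.92 and 4.73 (-1.62, adjusted p = 0.0676). The groups did not overlap in either gene, while the Sox17 shRNA arrays lay far apart. The mean level over the list was 8.05 and 8.04 in control and 7.09 and 7.11 with Sox17 shRNA.

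Basement membrane genes, which parietal endoderm makes in quantity, included 6 lower of 13 measured (2.36% of all genes), with a median of -0.87. Lama1, the laminin alpha chain of the first embryonic basement membranes, read 10.82 and 9.89 in control and 6.97 and 7.46 with Sox17 shRNA (-3.14, SE 0.49, adjusted p = 6.98e-04). On days 5 and 8 it differed by -2.87 and -2.74, and on day 8 it did not pass without control replicate 2 of that day (adjusted p = 0.0503). Col18a1, which encodes the precursor of endostatin, differed by -1.05 (adjusted p = 2.48e-04). Lamc1 differed by -1.12, but by -0.78 without control replicate 1 (adjusted p = 0.0895). The type IV collagen gene Col4a1 read 12.16 and 11.70 against 10.72 and 11.33 (-0.91, adjusted p = 0.123). The count of 6 was 2 without control replicate 1 and 3 without Sox17 shRNA replicate 1. The list's mean level was 10.32 and 9.93 in control and 9.09 and 9.50 with Sox17 shRNA, and the part of these endoderm lists in the heart muscle result was not tested.

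Genes of the primitive streak and the posterior body were among the 2.84% of all genes that were higher. Of 20 measured streak and mesoderm genes 4 were higher, or 2 without control replicate 1 or Sox17 shRNA replicate 1, and the median was 0.01. Nkx1-2, a homeobox gene of the caudal epiblast, had the largest measured rise, at 7.03 and 7.23 with Sox17 shRNA against 4.41 and 4.29 in control (2.77, SE 0.24, adjusted p = 7.29e-07). It was higher by 2.30 on day 5 and 2.37 on day 8, and its 3 probe sets ranged from 0.24 to 2.77 on day 6. Nkx1-2 passed the filter on dim probe sets only through Sox17 shRNA arrays. Evx1, a homeobox gene of the posterior streak, read 7.39 and 6.87 against 5.54 and 5.73 (1.49, SE 0.22, adjusted p = 3.12e-04).
Cdx2, a caudal homeobox gene, differed by 1.42, by 1.27 without control replicate 1 (adjusted p = 0.0927) and by 0.999 without Sox17 shRNA replicate 1 (0.0991). Rspo3, a secreted enhancer of Wnt signalling, differed by 1.51, and that call was lost without either control array or Sox17 shRNA replicate 1 (1.56, 1.45 and 1.20, adjusted p = 0.0859, 0.0891 and 0.137).

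On day 5, 12 of the 20 streak genes had been higher (7 without control replicate 1 and 6 without Sox17 shRNA replicate 1 of that day), with a median of 1.20, and for 4 the difference between arms changed downward from day 5 to day 6. These 4, named after their values were seen, were Mixl1, Fgf8, Gsc and Sp5. Those of Mixl1 and Fgf8 held without any 1 of the 8 arrays. Gsc (-2.04) was lost without 6 of them, all but Sox17 shRNA replicate 2 of day 5 and replicate 1 of day 6, and Sp5 (-1.90) without 4, namely both control arrays of day 5, control replicate 1 of day 6 and Sox17 shRNA replicate 1 of day 5 (adjusted p up to 0.0788 and 0.113). Mixl1, a homeobox factor in streak cells, was 4.13 higher on day 5, and on day 6 it read 6.21 and 5.98 against 5.05 and 5.24 (0.95, adjusted p = 0.183). Fgf8, a growth factor of the streak, was 2.62 higher on day 5 and read 5.20 and 4.50 against 5.91 and 5.73 on day 6 (-0.97, adjusted p = 0.114). Tdgf1, the Nodal coreceptor, changed sign between these days. It read 11.46 and 10.57 with Sox17 shRNA against 8.65 and 7.90 in control on day 5 (2.74, adjusted p = 4.13e-04), and 7.36 and 5.97 against 8.83 and 9.06 on day 6 (-2.28, SE 0.39, adjusted p = 0.00155).

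Hox genes, which set position along the body axis, were higher in 9 of 23 measured (2.84% of all genes), with a median of 0.22. Of the 33 listed, 7 were below the filter. A gene can pass the filter through Sox17 shRNA arrays alone, as Hoxd9 did, so the share only describes these genes. Hoxd9 read 8.02 and 6.90 with Sox17 shRNA and 5.34 and 5.46 in control (2.06, SE 0.32, adjusted p = 5.95e-04). Hoxc10 read 6.11 and 5.57 against 3.96 and 4.23 (1.74, adjusted p = 1.88e-05), Hoxd8 7.504 and 6.70 against 5.39 and 5.36 (1.73, adjusted p = 7.38e-05), and Hoxc8 6.73 and 6.98 against 4.76 and 5.49 (1.73, adjusted p = 5.24e-05).
In each of these 4 genes both Sox17 shRNA arrays lay above both control arrays, and the calls held without any 1 array. The count of 9 was 6 without control replicate 1, 6 without Sox17 shRNA replicate 1, 8 without control replicate 2 and 9 without Sox17 shRNA replicate 2. Hoxd3os1, an antisense transcript at the Hoxd cluster, differed by 2.20, but without control replicate 1 (2.07, adjusted p = 0.0552) or Sox17 shRNA replicate 1 (1.44, 0.068) it did not pass.

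**Figure D5:**
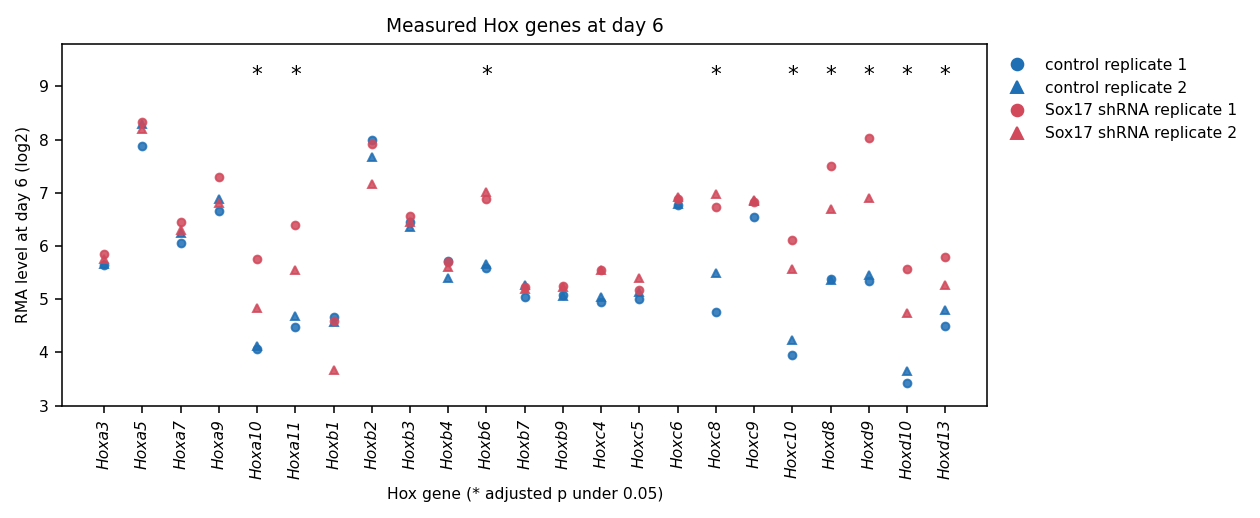
Levels (RMA, log2) of the 23 measured Hox genes on the 4 arrays of day 6, control in blue and Sox17 shRNA in red, with an asterisk over the 9 that were higher. Hoxd9 has the largest gap, with red marks at 8.02 and 6.90 and blue marks at 5.34 and 5.46.

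Of 11 genes of the allantois and extraembryonic mesoderm 3 were higher and 1 was lower. Tbx4, a T-box gene of the allantois and hindlimb, read 6.50 and 5.75 with Sox17 shRNA and 4.06 and 4.02 in control (2.09, SE 0.21, adjusted p = 4.92e-06), and differed by 0.18 on day 5. Its other probe set gave 0.51 on day 6. Tbx4 passed the filter on dim probe sets only through Sox17 shRNA arrays. Pitx1, a hindlimb homeobox gene, read 6.66 and 7.54 against 5.63 and 5.81 (1.38), and was lost without control replicate 1 (1.29, adjusted p = 0.0533). Hand1 was the third and is described above. Wnt2 was the lower gene (-0.96), lost without control replicate 1 (-0.87, adjusted p = 0.129) or Sox17 shRNA replicate 2 (-0.92, adjusted p = 0.053).

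Of 18 measured haematopoietic and erythroid genes 4 were higher, or 2 without either control array or Sox17 shRNA replicate 2. Tal1, a master regulator of blood formation, read 8.09 and 8.19 with Sox17 shRNA and 6.94 and 6.997 in control (1.18, SE 0.22, adjusted p = 0.00313). Myb, a factor of definitive blood progenitors, read 6.94 on both Sox17 shRNA arrays and 4.76 and 4.78 in control (2.17, SE 0.17, adjusted p = 2.06e-07). Gata2 (0.999) was lost without any of the 4 arrays (0.93 to 1.07, adjusted p = 0.0684 to 0.155), and Nfe2 (1.34) without any but Sox17 shRNA replicate 1 (0.67 to 1.41, adjusted p = 0.152 to 0.433). The embryonic globin gene Hbb-bh1 read 11.22 and 12.41 in control and 10.54 and 12.999 with Sox17 shRNA, a spread within each group of over 2-fold. The list's mean level was 6.82 and 7.30 in control and 7.13 and 8.02 with Sox17 shRNA, so the groups overlapped.

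Of 24 measured endothelial genes 4 were lower (2.36% of all genes), and the median was -0.67. In 17 of them both Sox17 shRNA arrays lay below both control arrays (19.1% of all genes), and in 2 both lay above. Emcn, endomucin of veins and capillaries, read 6.40 and 6.68 in control and 4.85 and 4.30 with Sox17 shRNA (-1.97, SE 0.37, adjusted p = 0.00332). Flt4, a receptor for lymphatic growth factors, read 7.99 and 7.71 against 6.74 and 6.99 (-0.98, SE 0.17, adjusted p = 0.00155). Cd34 differed by -1.44, lost without control replicate 1 (-1.37, adjusted p = 0.0558), and Icam2 by -1.53, lost without either control array or Sox17 shRNA replicate 2 (-1.57, -1.49 and -1.38, adjusted p = 0.095, 0.0893 and 0.0799). Sox18, a relative of Sox17 in endothelium, read 8.02 and 7.85 against 7.13 and 6.38 (-1.18, adjusted p = 0.139). The endothelial count was 2 without control replicate 1 and 7 without Sox17 shRNA replicate 1. On day 5 the median of the list was 0.08 and 2 genes were higher.

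Srgn, the core protein of a proteoglycan of secretory granules in platelets and other blood cells, was among the 12 largest falls. It read 10.65 and 9.79 in control and 5.72 and 5.12 with Sox17 shRNA (-4.80, SE 0.88, adjusted p = 0.00273), and differed by -4.13 on day 5 and -5.72 on day 8. The day 5 call was lost without either control array of that day (adjusted p up to 0.0599). Leaving out control replicate 1 ended the day 6 call of Srgn (-4.37, adjusted p = 0.0557). Of the 13 measured megakaryocyte and platelet genes Srgn was the only lower one and Nfe2 the only higher one and the median of the list was 0.12.

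Of the 12 largest falls, only Sphkap and Vgll2 were in none of the lists. Sphkap, an anchoring protein for protein kinase A, read 8.39 and 8.07 in control and 4.15 and 4.24 with Sox17 shRNA (-4.03, SE 0.16, adjusted p = 8.26e-12). Vgll2, a cofactor of TEAD transcription factors, read 8.15 and 7.97 against 4.33 and 4.63 (-3.58, SE 0.21, adjusted p = 3.46e-09). Both were near 4 in both arms on day 5, between 4.18 and 4.35 on the 4 arrays.

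Of the 12 largest rises, Nkx1-2, Hoxd9, Hoxd3os1, Myb and Tbx4 are given above. Col1a1, the main chain of fibrillar collagen, read 8.69 and 8.51 with Sox17 shRNA and 6.46 and 6.33 in control (2.21, SE 0.25, adjusted p = 2.41e-05). Pcolce, which aids collagen processing, read 7.97 and 8.99 against 6.42 and 6.76 (1.89, adjusted p = 2.94e-05). Col1a1 was nevertheless the only higher gene of 20 in the list of mesenchyme and fibrillar matrix, where Alx1 (-1.40), Foxc1 (-1.74) and Foxc2 (-1.79) were lower. That count of 1 was 5 without Sox17 shRNA replicate 1, and Foxc2 was lost without control replicate 1 (-1.44, adjusted p = 0.0631).
Cbln1, a secreted synaptic organiser, rose by 1.95 and Dcaf12l1 by 1.87. Ackr3, a scavenging chemokine receptor, differed by 2.17 and Pmp22, a membrane protein of myelin and other cells, by 1.87. Both were lost without any 1 of the 4 arrays (2.15 to 2.19 and 1.76 to 1.98, adjusted p = 0.118 to 0.23 and 0.0853 to 0.197). Zfp42, a marker of stem cells, differed by 1.95 and was lost without control replicate 1, control replicate 2 or Sox17 shRNA replicate 1 (2.04, 1.86 and 1.35, adjusted p = 0.179, 0.186 and 0.333). Among 26 pluripotency genes it was the only higher one, and Tdgf1 and Klf2 were the lower ones. Klf2 (-1.03) was lost without either control array or Sox17 shRNA replicate 2 (-0.97, -1.08 and -0.70, adjusted p = 0.25, 0.128 and 0.278).

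Signalling lists gave few calls in number. The shares called lower in the Notch, Fgf and Bmp lists and higher in the Wnt list were nevertheless above those over all genes. The latter were 2.36% lower and 2.84% higher. In the Notch list 3 of 19 were lower. Jag1, a Notch ligand, read 10.14 and 9.75 in control and 7.85 and 7.13 with Sox17 shRNA (-2.46, SE 0.40, adjusted p = 9.67e-04), against -0.93 on day 5 and -0.94 on day 8. Neither change between these days passed for Jag1 or any other gene of the list. Hey1, a Notch target, differed by -1.55, lost without control replicate 1 (-1.36, adjusted p = 0.107) or Sox17 shRNA replicate 2 (-1.03, adjusted p = 0.088). The count was 1 without control replicate 1 and without Sox17 shRNA replicate 2. In the Fgf list 3 of 19 were lower, and Spry1, a feedback inhibitor, read 9.14 and 9.01 against 7.92 and 8.43 (-0.90, adjusted p = 0.00211). That count was 1 without control replicate 1.

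In the Bmp list 3 of 21 were lower and 1 was higher. Id4, an inhibitor of basic helix-loop-helix factors, read 7.79 and 7.34 in control and 5.55 and 5.59 with Sox17 shRNA (-1.99, adjusted p = 0.00155). Msx1, a Bmp target, differed by 1.37 but was lost without any of the 4 arrays (1.31 to 1.44, adjusted p = 0.0968 to 0.184). The lower count was 1 without control replicate 1. In the Wnt list 3 of 19 were higher and 1 was lower. Ccnd1, cyclin D1, read 10.59 and 9.72 against 9.11 and 9.04 (1.08, adjusted p = 0.00132), and Nkd1, a Wnt feedback gene, differed by 1.07, lost without either control array or Sox17 shRNA replicate 1 (1.21, 0.94 and 1.02, adjusted p = 0.0638, 0.144 and 0.0968). The higher count was 1 without either control array. In the Nodal list, 1 of 16, Tdgf1, was lower.

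Lists of other cell types and states gave few calls in number, beside the same 2.36% lower and 2.84% higher over all genes. Some shares, such as that of the higher interferon genes, were nevertheless above these. No smooth muscle gene of 12 passed in limma, with 2 higher at an unadjusted p under 0.05, and the list's mean level was 8.45 and 8.62 in control and 8.31 and 8.94 with Sox17 shRNA. Of the skeletal muscle list 9 of 12 genes were below the filter. The fast troponin T gene Tnnt3 was higher (0.98), lost without either control array or Sox17 shRNA replicate 1 (1.03, 0.93 and 0.88, adjusted p = 0.12, 0.135 and 0.14). Of 7 macrophage genes and of 17 p53 targets none passed, with 0 and 1 at an unadjusted p under 0.05. Of 17 interferon genes 3 were higher, but 0 without control replicate 1 and 1 without Sox17 shRNA replicate 1.
In the neural list of 16 Pax6, a homeobox gene of eye and brain, read 6.32 and 5.76 in control and 4.56 and 4.30 with Sox17 shRNA (-1.61, adjusted p = 2.75e-04), with 2 of its 5 probe sets of opposite sign. Otx2 (above) and Six3 (-0.78) were lower and Tubb3 (1.81), a neuronal tubulin, was higher. Six3 was lost without either control array or Sox17 shRNA replicate 2 (-0.79, -0.77 and -0.72, adjusted p = 0.0993, 0.083 and 0.0743) and Tubb3 without control replicate 1 or Sox17 shRNA replicate 2 (1.71 and 1.499, adjusted p = 0.101 and 0.077). Plac1, a placental gene, was the 1 higher of 4 trophoblast genes, at 9.16 and 8.53 against 7.10 and 7.03 (1.78, adjusted p = 0.00121). In the list of fatty acid oxidation Hadhb, a subunit of the mitochondrial trifunctional protein, read 10.11 and 10.26 with Sox17 shRNA against 9.33 and 9.25 in control (0.90, adjusted p = 1.36e-04).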

How the data were processed

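The files hold 45101 probe sets of a mouse expression array on 27 arrays, and 4 of these arrays make up the day 6 comparison. The authors deposited log2 values made with RMA, per the submitters' processing notes, with no version given in the sources used here. Values ran from 2.66 to 14.48. Background correction and scaling were thus done upstream, and levels cannot be compared between genes. Probe sets with 1 gene symbol in the platform table (34958, against 932 with several and 9211 not listed) were kept where they exceeded the median of all values, 5.53, on at least 2 arrays. The probe set with the highest mean stood for a gene, which gave 13297 genes.

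Differences were fitted with limma 3.58.1 in R 4.3.3, as 14 group means over all 27 arrays (13 residual degrees of freedom, eBayes with an intensity trend), so the spread is shared between days. P-values are two-sided with Benjamini-Hochberg adjustment over all genes, at a threshold of 0.05. An exact permutation test of 2 against 2 arrays cannot go below 0.333 and was not used. Scripts were tested on simulated data. The only depth-like limit is the number of arrays.

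The comparison, the 37 gene lists and the rule for named genes were chosen with earlier results of these data known. The rule names Sox17, Hhex and Cer1, the 12 largest rises and falls whose arrays do not overlap, up to 4 called members of each list (2 by size where fewer than 2 passed), all heart muscle and heart factor members, and the largest changes between days. Amn, Col4a1, Foxa2, Hbb-bh1, Mixl1, Fgf8, Gsc and Sp5 were added after their values were seen. Of 109 named called genes, 54 had several probe sets, and in 4 of them (Bmpr1a, Pax6, Six3 and Smyd1) at least 1 had the opposite sign.

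Alternatives were the arrays compared alone, a replicate block, other variance moderation, array weights, other filters and probe set rules, median centring, and leaving out each array.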

Additional observations from a re-analysis of the deposited data

Results flagged for a closer look

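The difference between arms itself changed between days in a subset of genes, tested as an interaction in limma. Between day 5 and day 6 it changed in 94 genes and between day 6 and day 8 in 51. The values here are the later difference minus the earlier one, each as Sox17 shRNA minus control. Both tests use the day 6 arrays, so they are not independent of each other.

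From day 5 to day 6 the largest downward changes were those of Myl7 (-5.83), Tnnt2 (-5.80), Myl4 (-5.62), Myh6 (-5.04), Tdgf1 (-5.02) and Ttn (-4.79), and each passed without any 1 of the 8 arrays. The largest upward changes were those of Snai2 (3.11, adjusted p = 0.0317), Spin2c (2.34), Slco4c1 (2.28, adjusted p = 0.0229), Lhfpl2 (2.28), Rnd2 (2.18) and Plac1 (2.09, adjusted p = 0.0198). Spin2c, Lhfpl2 and Rnd2 passed without any 1 array, while Snai2 and Slco4c1 were lost without 5 of the 8 and Plac1 without 6.

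From day 6 to day 8 the largest upward changes were those of Rbp4 (2.68), Myl7 (2.54), Apela (2.32), Tent5c (2.09), Mef2c (2.08) and Tnnt2 (2.06). Apela, Tent5c and Tnnt2 passed without any 1 array. Rbp4 and Myl7 were lost without 6 of the 8, and Mef2c without control replicate 1 of day 6, control replicate 2 of day 8 or Sox17 shRNA replicate 1 of day 8. The largest downward changes were those of Tnni3 (-3.06), Tecrl (-2.56), Cacna2d2 (-2.49), Igfbp1 (-2.13), Srl (-2.06) and Foxd1 (-2.03), and each passed without any 1 array.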

How the results depend on the processing

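The number of heart muscle genes lower at day 6 stayed between 25 and 31 under the alternatives other than leaving out an array. With only the arrays compared in the fit, 328 genes were called at day 6 in place of 691. The count was 24 in place of 51 for the change from day 6 to day 8, and for the day 5 to day 6 step it was 4316 in control and 56 with Sox17 shRNA. Array weights gave 4634 and 1271 for those 2 steps, against 2382 and 2254. Leaving out 1 array gave 229 to 652 genes at day 6, 41 to 415 for the change from day 5 to day 6, 22 to 66 for that from day 6 to day 8, 857 to 1730 for the control step and 676 to 2396 for the Sox17 shRNA step. None of the 106 named day 6 calls followed under the alternatives changed sign. Spin2c, Rnd2 and Tecrl, also called at day 6, were followed only with 1 array left out and kept their sign there. Of 74 uncalled genes followed, 21 changed sign when 1 array was left out, among them Acta1 (-1.35 to 0.33), Cryab (-1.28 to 0.69), Fhl2 (-0.83 to 0.31) and Hey2 (-0.32 to 1.15). Of the uncalled genes whose day 6 values are given above, those that did were Tbx20 (-0.36 with the median over probe sets) and 3 genes when 1 array was left out, namely Hand2 (-0.11 to 0.23, lowest without Sox17 shRNA replicate 1), Tnni3 (-0.44 to 0.003, highest without Sox17 shRNA replicate 2) and Hbb-bh1 (-1.27 to 1.18, with 0.55 without control replicate 2 and 1.18 without Sox17 shRNA replicate 1). The cause was not tested.

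Replicate numbers are shared between arms. Deviations of same-numbered arrays from their group means correlated at 0.0986 to 0.683 over the days (0.117 at day 6). The correlation was positive on every day and under 0.1 only on day 10. The main fit did not take the numbers as pairs. With the replicate block 907 genes were called at day 6, 101 and 49 for the changes between days, and 3075 and 2935 for the control and Sox17 shRNA steps, and 103 of 106 named calls held.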
